A study of Mus musculus with 8 samples.

Results

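Chemokines are small secreted proteins that guide migrating cells, and their receptors are G protein-coupled receptors on the cells that respond. The 48 genes described here are 33 mouse chemokine ligand genes and 15 chemokine receptor genes, chosen by name. Of these, 47 were represented on the array through the RefSeq accession of their probes, by 56 probes on 65 spots. Cxcl11 had no such probe in the gene table used. After a filter on dim signal, 31 genes were tested, 20 ligands and 11 receptors, out of 16761 genes tested on the whole array.

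RNA from 8 mouse breast tumours was measured on 2-colour Agilent arrays, with 1 tumour on each. In 4 samples (FGFR1 KO) the mice were K19-tva/fgfr1loxP/loxP, and in 4 (WT) they were control K19-tva mice. All were on the FVB strain, into which the loxP alleles had been crossed from ICR mice. K19-tva joins the keratin 19 promoter to tva, the receptor of an avian virus, and both genotypes carried it. Age, the agent that started the tumours, the source of recombinase and whether each tumour is from a different mouse are not stated in the labels. The p-values reflect spread between samples that may be technical. The small number of arrays limits precision. Each value is log2 of tumour signal (red) over the signal of universal human reference RNA (green). The labelling protocol assigns the dyes in this way, whereas the label field names cy3 alone. Within genotypes, the median SD of log2 signal over 22152 probes was 0.275 in red and 0.163 in green for FGFR1 KO, and 0.352 in red and 0.178 in green for WT, so the less variable channel was taken as the reference. Differences are FGFR1 KO minus WT.

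Chemokines are named by their first cysteines, which lie side by side in CC ligands and have another residue between them in CXC ligands. Receptors are named by the ligand class they bind, and most ligands of inflammation share receptors, while several ligands of lymphoid tissue have a receptor of their own. In tumours, CCR2 ligands are known for drawing monocytes, CXCR2 ligands for drawing neutrophils, CXCR3 ligands for drawing activated T cells and natural killer cells, and CXCL12 from fibroblasts for holding cells that carry CXCR4.

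Several properties of the arrays touch these genes. The share of spots with red well above background was 68.9% to 83.9% for FGFR1 KO and 43.9% to 69.2% for WT, so a gene could meet the 4-array filter on FGFR1 KO signal only. Negative-control spots in the 240 rows from row 97 and the 82 columns from column 83, called the bright area here, had a median red signal over local background of 35.5 on WT 1 and 41 on WT 3, while the other 6 arrays had 0 to 6.25. Of the 56 chemokine probes, 22 had a spot there. All arrays shared 1 slide, with each genotype in a slide row of its own, and the effects of row and genotype cannot be told apart. WT 2 was the least like the others. Its skeletal muscle list had a median of 8.56, against -0.38 to 2.99 for the rest, and its mammary epithelium list had -0.63, against 1.75 to 3.12. Fgfr1 itself, by its brightest probe, read 0.45, 0.27, 0.32 and 0.19 in FGFR1 KO 1 to 4, against 0.28, 0.23, 0.38 and 0.33 in WT 1 to 4, and where that probe lies relative to the loxP sites is not given, so it does not check the labels. In pieces of tumour, fewer cells of a type and less RNA per cell cannot be told apart.

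No chemokine or receptor gene passed the test between FGFR1 KO and WT tumours. By limma with Benjamini-Hochberg adjustment, 0 of 31 genes were called, against 4 of 39795 probes on the whole array (0.0101%), all of them lower. The smallest adjusted p among the 31 genes was 0.369. At an unadjusted p under 0.05, Ccl24, Ccr7 and Ccl8 were below WT, or 9.68% of the 31, against 4.78% of all genes tested. No member was above WT by that measure, against 3.1% of all genes, so 3 of 31 passed in either direction, against 7.88%. On 1 gene, Ccr7, all FGFR1 KO arrays lay below all WT arrays, against 2.49% of genes with 8 values, and on 0 genes above them, against 1.82%.

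The ligands had a median log2 change of -0.15, with 13 of 20 below 0. The receptors had a median of -0.08, with 7 of 11 below 0. Among them, Ccr2, Ccr3, Ccr4, Ccr9 and Cxcr3 were each above background on 1 WT array, which limits this median. Over all 16761 genes the median was -0.00 and 50.4% were below 0. The ligand median stayed below 0 under all 21 alternative settings, but was -0.00 without WT 1 and WT 3. The receptor median turned above 0 in several settings, among them Agilent's own log ratio at 0.21. By class, 9 of 11 CC ligands were below 0, with a median of -0.44, and 4 of 8 CXC ligands, with a median of 0.02. The difference between the classes was not tested.

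**Figure D1:**
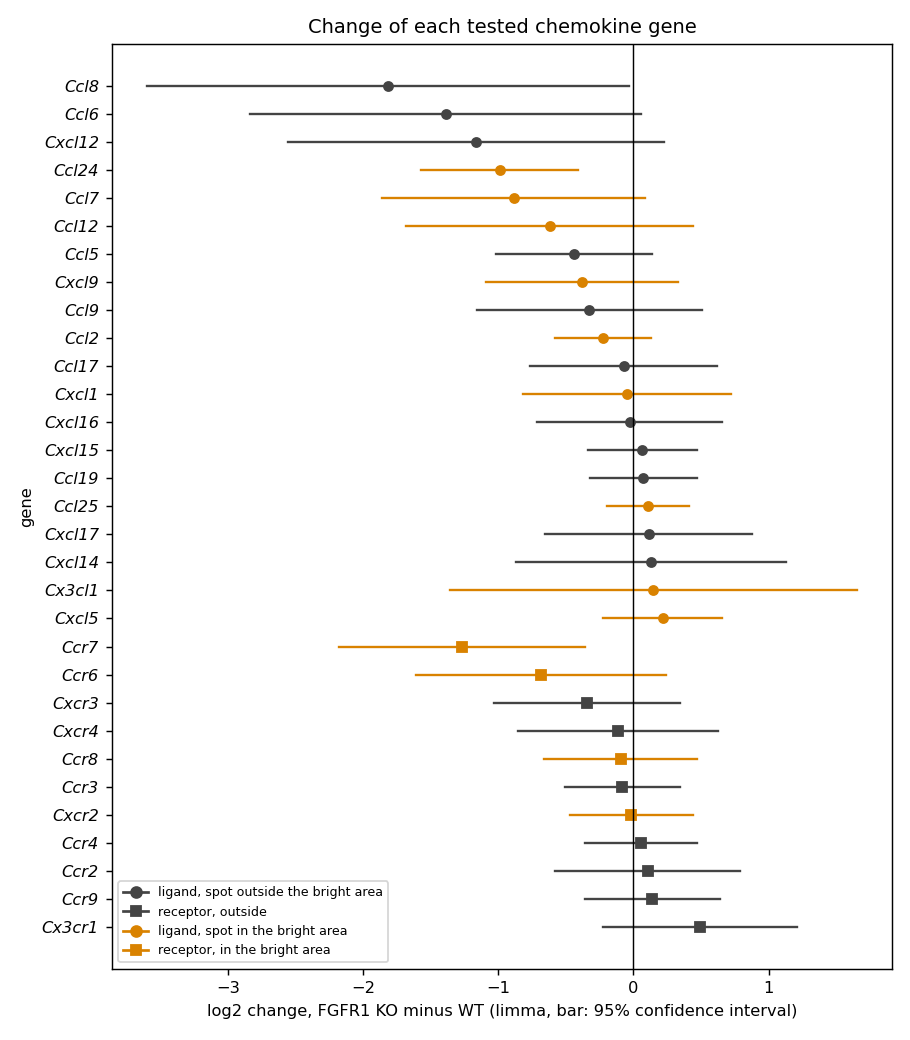
Log2 change of each of the 31 tested genes, FGFR1 KO minus WT, on the horizontal axis, with 95% confidence intervals from limma. Circles are ligands, squares are receptors, and orange marks genes with spots in the bright area. Ccl24, Ccr7 and Ccl8 have intervals that do not reach 0.

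Of the 13 tested genes with spots in the bright area, 10 were below 0 with a median of -0.22. Of the 18 outside it, 10 were below 0 with a median of -0.05. Over all genes, the medians were -0.10 inside and 0.04 outside. The part of the bright area in the changes of its genes was not tested beyond these values.

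Ccl8, Ccl12 and Ccl6 are CC ligand genes of the chromosome 11 clusters that read high on WT 1 and WT 3, and Cx3cr1 is a receptor gene whose 3 probes all averaged above WT. The 250 bases before the start of each gene are shown to let these promoters be compared, from RefSeq, build GRCm38.p6. These 4 genes were chosen after their values were seen. Capitals mark every match, on either strand, to an NF-kB motif (GGG and CC with 5 bases between them), the STAT motif TTCNNNGAA, an ISRE motif of interferon response (GAAA, 2 bases, GAAA), the PU.1 core GAGGAA and the TATA box TATAAA.
Ccl8 (chr11:82114935-82115184, plus strand): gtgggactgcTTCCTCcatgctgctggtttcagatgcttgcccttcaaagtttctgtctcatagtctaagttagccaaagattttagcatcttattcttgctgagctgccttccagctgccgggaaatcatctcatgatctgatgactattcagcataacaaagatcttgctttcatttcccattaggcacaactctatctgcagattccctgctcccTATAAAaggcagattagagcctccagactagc
Ccl12 (chr11:82101595-82101844, plus strand): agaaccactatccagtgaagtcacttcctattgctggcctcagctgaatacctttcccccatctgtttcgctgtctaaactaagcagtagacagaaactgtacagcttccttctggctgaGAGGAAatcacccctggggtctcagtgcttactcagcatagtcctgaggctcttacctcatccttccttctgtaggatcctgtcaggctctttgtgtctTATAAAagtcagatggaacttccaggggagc
Ccl6 (chr11:83593088-83593337, minus strand): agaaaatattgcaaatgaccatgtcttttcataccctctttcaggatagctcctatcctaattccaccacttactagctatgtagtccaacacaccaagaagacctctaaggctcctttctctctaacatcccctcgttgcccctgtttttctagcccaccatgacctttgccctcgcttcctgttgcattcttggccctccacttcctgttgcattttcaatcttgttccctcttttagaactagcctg
Cx3cr1 (chr9:120068297-120068546, minus strand): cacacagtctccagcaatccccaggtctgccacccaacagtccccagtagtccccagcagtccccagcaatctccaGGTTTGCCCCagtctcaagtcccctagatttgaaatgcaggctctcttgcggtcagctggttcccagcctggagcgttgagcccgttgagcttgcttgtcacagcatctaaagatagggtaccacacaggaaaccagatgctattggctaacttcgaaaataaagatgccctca
Ccl8 and Ccl12 each held a TATAAA, at positions -32 and -31 from the start of the gene, and a GAGGAA match, at -240 and -130. The window of Ccl6 held none of the 5 motifs, and that of Cx3cr1 held 1 NF-kB match on the opposite strand, at position -174. Of the 38 windows found for 36 member genes, 11 held TATAAA, against 12.37% of 32841 windows of all genes. The NF-kB motif was in 21 of them, against 45.81%, and GAGGAA in 11, against 23.26%. The ISRE and STAT motifs were each in 3, against 2.978% and 7.022%. A match is a string of letters and not a shown binding site.

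Among the CC ligands that draw monocytes and other myeloid cells, Ccl6, Ccl7, Ccl8, Ccl9 and Ccl12 had WT 1 and WT 3 as their highest WT arrays, and none of the 5 passed the test. Ccl8, which in mouse acts through CCR8, read 1.36, 2.22, 2.74 and 0.99 in FGFR1 KO 1 to 4, against 5.73, 1.60, 3.97 and 3.26 in WT 1 to 4. WT 1, WT 3 and WT 4 lay above every FGFR1 KO array, and WT 2 lay among them. It averaged 1.83 ± 0.80 in FGFR1 KO and 3.64 ± 1.71 in WT (SD, n = 4 each), a difference of -1.82 ± 0.79 (SE; limma adjusted p = 0.582). Without WT 1 the difference was -1.12, and without WT 1 and WT 3 it was -0.61.

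Ccl6, a rodent macrophage chemokine that acts through CCR1, read 1.98, 3.50, 3.91 and 3.06 in FGFR1 KO 1 to 4, against 5.60, 3.50, 5.62 and 3.29 in WT 1 to 4. WT 1 and WT 3 stood above all others, and WT 2 and WT 4 lay within the FGFR1 KO range. The difference was -1.39 ± 0.64 (SE; limma adjusted p = 0.602), and -0.28 without WT 1 and WT 3. Its genomic neighbour Ccl9, which shares that receptor, read -0.82, 0.85, 0.17 and 0.22 in FGFR1 KO 1 to 4, against 0.97, -0.19, 0.66 and 0.28 in WT 1 to 4. Its groups overlapped, with a difference of -0.33 ± 0.37 (SE).

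The ligands of the monocyte receptor CCR2 were all below 0. Ccl7 read -3.11, -1.69, -2.32 and -2.64 in FGFR1 KO 1 to 4, against -0.92, -2.57, -0.89 and -1.82 in WT 1 to 4, a difference of -0.89 ± 0.43 (SE; limma adjusted p = 0.613). Ccl12 read 0.58, 0.12, 0.43 and -0.10 in FGFR1 KO 1 to 4, against 2.22, -0.25, 1.13 and 0.41 in WT 1 to 4, a difference of -0.62 ± 0.47 (SE). For both, WT 1 and WT 3 were the high arrays and the groups overlapped. Both probes lay in the bright area. Without WT 1 and WT 3, the difference of Ccl7 was -0.24 and that of Ccl12 turned to 0.18, having been -0.17 without WT 1 alone.

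Ccl2, the main CCR2 ligand of inflamed tissue, differed less. It read -0.84, -1.14, -1.11 and -1.16 in FGFR1 KO 1 to 4, against -0.93, -1.08, -0.57 and -0.78 in WT 1 to 4, as the average of 10 spots of which 5 were in the bright area. The groups overlapped, with a difference of -0.22 ± 0.16 (SE) and a 95% interval from -0.58 to 0.13. Ccr2 itself read 0.78, 0.66, 0.85 and 0.02 in FGFR1 KO 1 to 4, against 1.28, 0.36, -0.05 and 0.30 in WT 1 to 4. Its probe was above background on 4 FGFR1 KO arrays and 1 WT array, and its difference was 0.10 ± 0.30 (SE). The difference between the receptor's change and theirs was not tested.

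**Figure D2:**
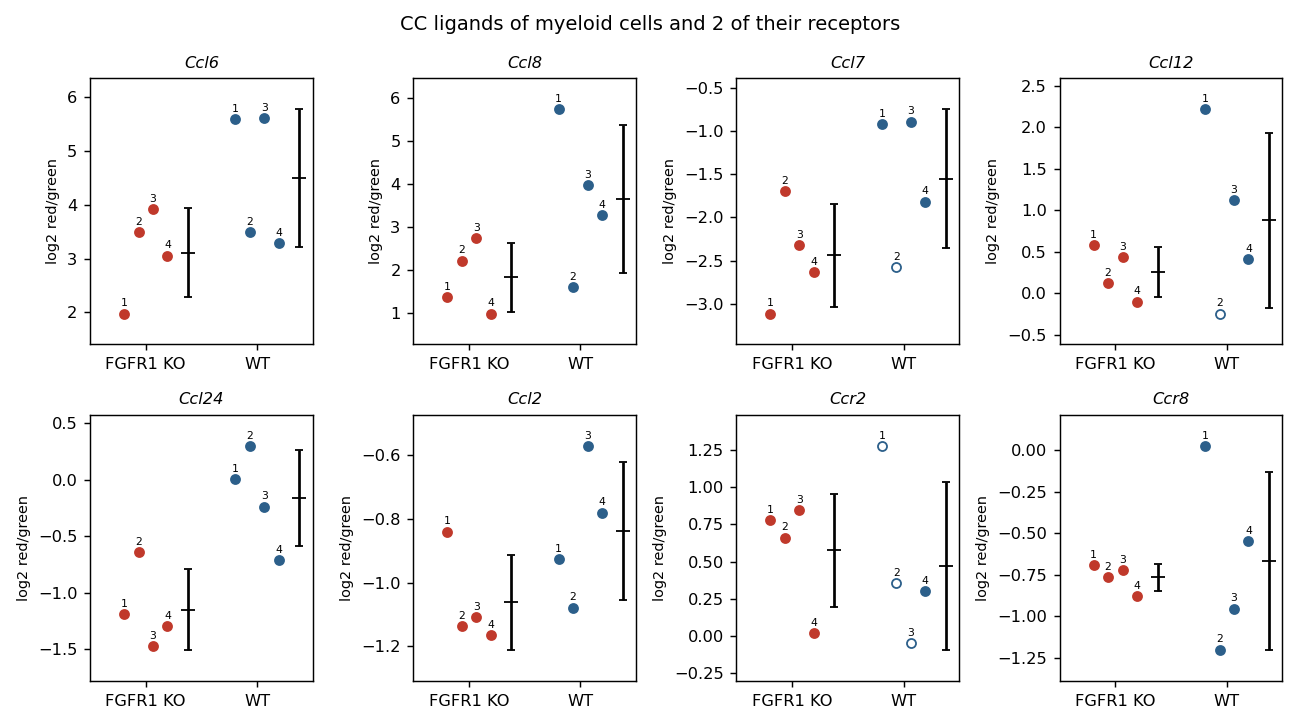
Log2 red over green of 6 CC ligand genes and the receptor genes Ccr2 and Ccr8 on each array. Points are arrays numbered by replicate, filled where red was well above background, and bars show the group mean and SD (n = 4). WT 1 and WT 3 are the high WT arrays for Ccl6, Ccl7, Ccl8 and Ccl12.

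Macrophage markers were compared on the same arrays. Of 12 tested markers of macrophages and monocytes, 9 were below 0 and 0 were called, with a median change of -0.16. Their summed red signal ran from 96236 to 107691 in FGFR1 KO and from 98065 to 118006 in WT, highest on WT 3 and WT 1. C1qa, a complement gene of tissue macrophages, read 3.85, 3.44, 4.43 and 4.53 in FGFR1 KO 1 to 4, against 5.17, 2.77, 5.20 and 3.57 in WT 1 to 4. Mrc1, the mannose receptor of tissue-resident macrophages, read 1.54, 1.06, 2.02 and 1.48 in FGFR1 KO 1 to 4, against 4.31, 2.43, 2.59 and 2.42 in WT 1 to 4, a difference of -1.41 ± 0.43 (SE; limma adjusted p = 0.442). All FGFR1 KO arrays lay below all WT arrays for Mrc1, and Adgre1, a macrophage surface receptor, differed by -0.82 ± 0.30 (SE). Other markers ran the other way. Fcgr1, a high-affinity IgG receptor, read 0.45, 0.30, 0.32 and 0.33 in FGFR1 KO 1 to 4, against 0.17, -0.25, 0.25 and -0.17 in WT 1 to 4, so all FGFR1 KO arrays lay above all WT arrays. Its difference was 0.35 ± 0.15 (SE; limma adjusted p = 0.585). Cd14, the lipopolysaccharide co-receptor, differed by 0.74 ± 0.75 (SE). The part of macrophage content in the CC ligand values was not tested.

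Ccl24, the eosinophil chemokine eotaxin-2, had the smallest unadjusted p of the 31 genes. It read -1.19, -0.64, -1.47 and -1.30 in FGFR1 KO 1 to 4, against 0.00, 0.30, -0.24 and -0.71 in WT 1 to 4. FGFR1 KO 2 and WT 4 crossed, and the other arrays were separated by genotype. The group means were -1.15 ± 0.36 in FGFR1 KO and -0.16 ± 0.43 in WT (SD, n = 4 each), a difference of -0.99 ± 0.26 (SE; limma adjusted p = 0.369; exact permutation p = 0.0571, two-sided). The spot lay in the bright area, and over the alternatives that kept it the difference ran from -1.17 to -0.68. The other eotaxin gene, Ccl11, whose spot also lay in the bright area, was above background on 1 FGFR1 KO and 1 WT array and was not tested. It read -0.03, -0.38, 0.50 and 0.27 in FGFR1 KO 1 to 4, against 1.45, 0.74, 1.09 and 0.43 in WT 1 to 4, so all WT arrays but WT 4 lay above all FGFR1 KO arrays. Their receptor gene Ccr3 read -0.13, -0.01, 0.49 and 0.41 in FGFR1 KO 1 to 4, against 0.05, 0.49, 0.16 and 0.40 in WT 1 to 4. Its difference was -0.08 ± 0.19 (SE), and its probe was above background on 3 FGFR1 KO arrays and 1 WT array.

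The list of markers of eosinophils, the cells drawn by eotaxins, and mast cells had 4 of 5 tested markers below 0 and a median of -0.49, with 0 called. Ear1 was the tested eosinophil gene, above background on 3 FGFR1 KO arrays and 1 WT array, and differed by -0.49 ± 0.29 (SE). Siglecf, Prg2 and Epx did not enter the test, so the list says little about eosinophils. The list's summed red signal ran from 4880 to 6956 in FGFR1 KO and from 4065 to 7411 in WT. Of its genes, Mcpt4 and Cma1, both mast cell proteases, had the smallest p, with differences of -2.10 ± 0.41 and -1.19 ± 0.30 (SE). The part of these cells in the Ccl24 value was not tested.

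Ccr7, the receptor that brings T cells and mature dendritic cells to lymph nodes, was the receptor gene with the smallest p. It read -0.56, 0.00, 0.12 and -0.03 in FGFR1 KO 1 to 4, against 2.29, 1.39, 0.61 and 0.31 in WT 1 to 4. Every FGFR1 KO array lay below every WT array. The group means were -0.12 ± 0.30 in FGFR1 KO and 1.15 ± 0.88 in WT (SD, n = 4 each), a difference of -1.27 ± 0.40 (SE; limma adjusted p = 0.455). An exact two-sided permutation test gave p = 0.0286, the smallest that 70 regroupings allow. The spot lay in the bright area, and the difference was -0.58 without WT 1 and WT 2.

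The CCR7 ligand Ccl19 was measured by 3 probes that disagreed. The brightest, A_55_P2127995, read -0.14, -0.03, -0.12 and -0.03 in FGFR1 KO 1 to 4, against 0.13, -0.61, -0.10 and -0.03 in WT 1 to 4, a difference of 0.07 ± 0.17 (SE). A_55_P2127991 read -0.46, -0.65, -0.44 and -0.44 in FGFR1 KO 1 to 4, against 0.65, -0.26, -0.17 and -0.41 in WT 1 to 4. On that probe the groups did not overlap, and the difference was -0.45 ± 0.23 (SE; limma adjusted p = 0.628). A_55_P2099742 read -0.32, -0.56, 0.06 and -0.06 in FGFR1 KO 1 to 4, against 3.17, 0.25, -0.02 and -0.11 in WT 1 to 4. WT 1 was the high array there, and the difference was -1.04 ± 0.67 (SE). Both of these probes lay in the bright area and the brightest did not. The mouse genome holds near-identical copies of Ccl19, and the sharing of signal between copies was not tested.

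WT 1 was the high array for many of the genes. Of the 31 tested genes, 14 were highest on WT 1, or 45.2%, against 11.9% of 16478 genes with 8 values. They were the ligand genes Ccl5, Ccl8, Ccl9, Ccl12, Ccl17, Ccl19 and Cxcl9 and the receptor genes Ccr2, Ccr6, Ccr7, Ccr8, Cxcr2, Cxcr3 and Cxcr4. Of these, Ccl12, Cxcl9, Ccr6, Ccr7, Ccr8 and Cxcr2 had their spot in the bright area, where WT 1 had raised background. Ccr2 was not above background on WT 1. WT 2, highest for 25.9% of all genes, was highest for Ccl24 and Cxcl12 and lowest for 11 of the 31, against 22.4% of all genes.

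**Figure D3:**
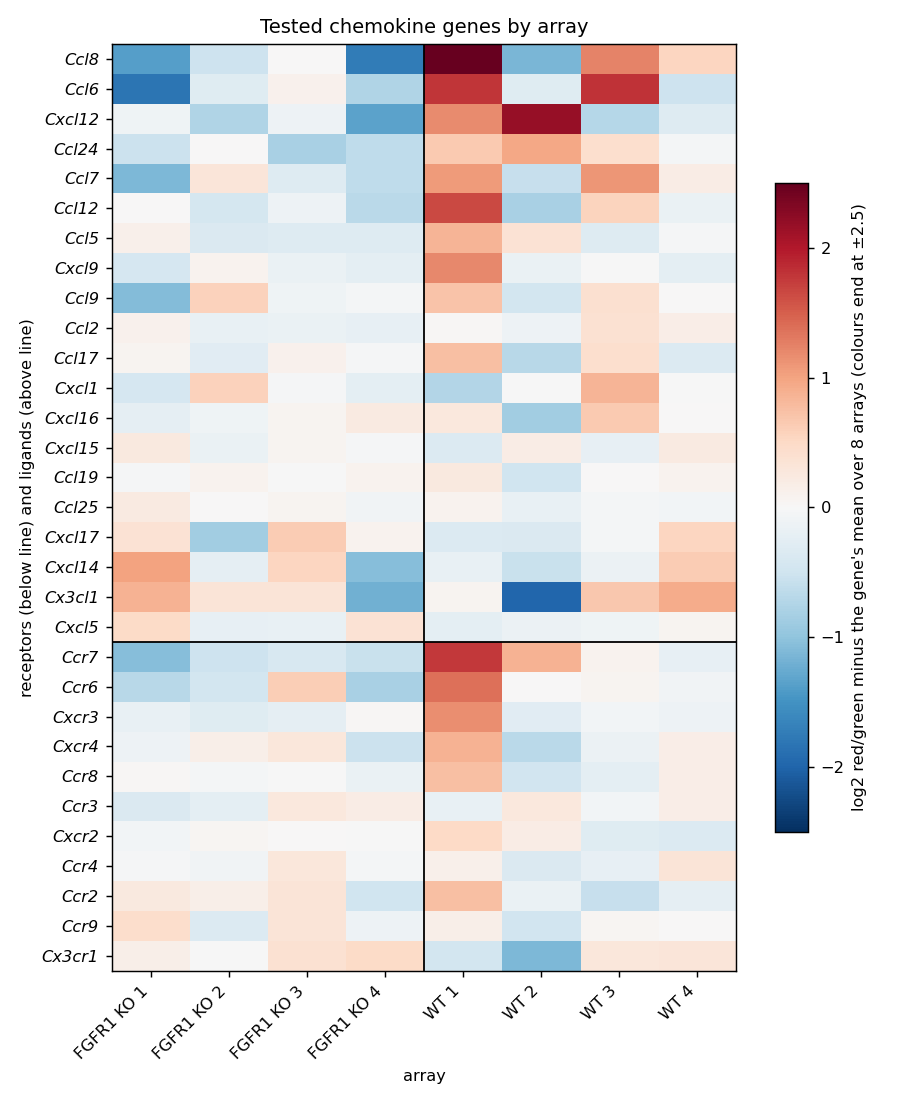
Tested chemokine genes (rows) on the 8 arrays (columns, FGFR1 KO left of WT), coloured by log2 red over green minus the gene's mean over the 8 arrays. Ligands are above the black line and receptors below it, each ordered by change. The WT 1 column is red for 14 genes that have their highest value there.

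Cxcl13, the B cell chemokine of follicles, read 0.18, 0.02, 0.32 and -0.06 in FGFR1 KO 1 to 4, against 3.38, -0.08, 0.36 and 0.10 in WT 1 to 4. Its receptor gene Cxcr5 read 0.05, 0.25, 0.16 and 0.38 in FGFR1 KO 1 to 4, against 2.84, 0.11, 0.37 and 0.21 in WT 1 to 4. Both were above background on 1 WT array and on no FGFR1 KO array and so were not tested, and both stood out on WT 1. Against the bound that background sets for FGFR1 KO, mean red signal in WT was 1.41-fold for Cxcl13 and 1.29-fold for Cxcr5. With 1 of 4 WT arrays measured, these are not lower limits of a genotype difference. Such ratios are open to dye bias, since no dyes were swapped.

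Cxcl9, an interferon-induced CXCR3 ligand, read -0.49, 0.02, -0.23 and -0.32 in FGFR1 KO 1 to 4, against 1.13, -0.24, -0.08 and -0.31 in WT 1 to 4. Cxcr3 read -0.15, -0.26, -0.19 and 0.07 in FGFR1 KO 1 to 4, against 1.20, -0.25, -0.04 and -0.08 in WT 1 to 4. The Cxcr3 probe was above background on 3 FGFR1 KO arrays and, among WT, on WT 1 only. Ligand and receptor were each high on WT 1 and overlapped between genotypes elsewhere. Their differences were -0.38 ± 0.31 and -0.34 ± 0.30 (SE), and -0.05 and -0.01 without WT 1. Cxcl10, the other CXCR3 ligand on the array, was not above background on any array and read -1.43, -0.63, -0.92 and -1.25 in FGFR1 KO 1 to 4, against -0.26, -1.27, -1.18 and -0.82 in WT 1 to 4. A second Cxcl9 probe, A_51_P461665, was above background on 1 WT array and no FGFR1 KO array. That array was WT 4, at 2.11, while WT 1 read 1.35 and WT 2 read -0.31. Mean red signal in WT was 1.84-fold the bound that background sets for FGFR1 KO. With 1 WT array measured, this is not a lower limit. Both Cxcl9 probes lay in the bright area.

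Ccr6, a receptor of B cells and of interleukin-17-producing T cells, read -0.03, 0.21, 1.28 and -0.13 in FGFR1 KO 1 to 4, against 2.06, 0.68, 0.75 and 0.58 in WT 1 to 4. The groups overlapped through FGFR1 KO 3, and the difference of -0.68 ± 0.41 (SE; limma adjusted p = 0.672) was -0.33 without WT 1. Its ligand Ccl20 was above background on no array. Ccl5, a T cell product that draws other leukocytes, read -0.27, -0.75, -0.73 and -0.71 in FGFR1 KO 1 to 4, against 0.46, -0.03, -0.71 and -0.42 in WT 1 to 4. Its difference was -0.44 ± 0.26 (SE; limma adjusted p = 0.666), and -0.23 without WT 1.

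**Figure D4:**
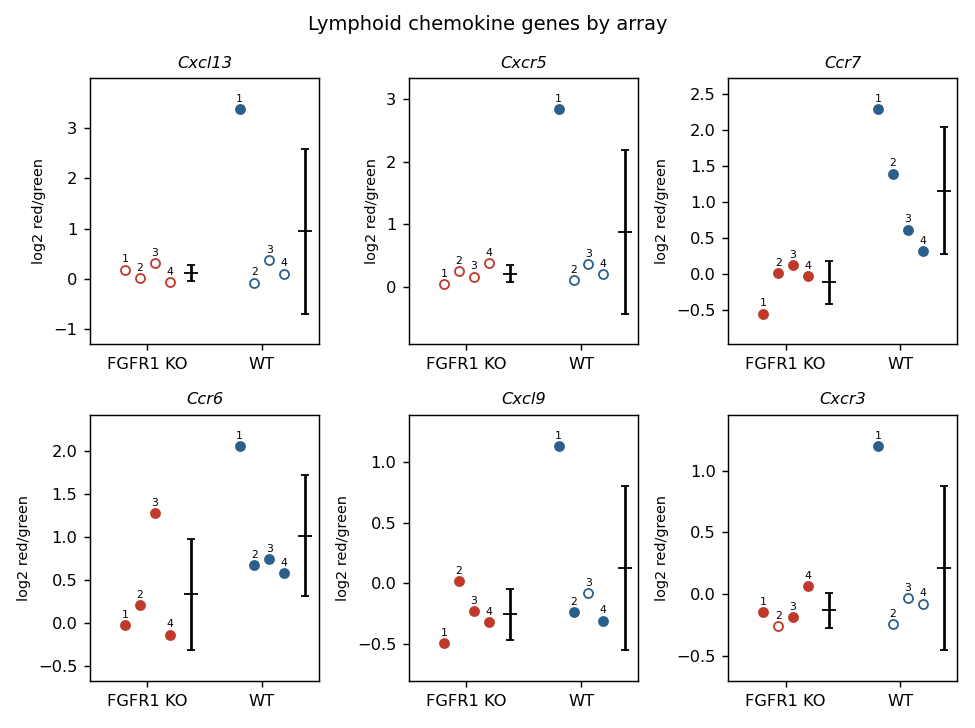
Log2 red over green of 6 lymphoid chemokine genes on each array, FGFR1 KO left of WT. Points are numbered by replicate, filled where red was well above background, and bars show the group mean and SD (n = 4). WT 1 is the highest array in each panel.

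Lymphocyte markers were compared on the same arrays. The B cell list had a median of 1.94 on WT 1, while the other 7 arrays had -0.32 to 0.01, and all 7 markers were below 0 in the genotype comparison with 0 called. Blk and Cd79a, both with a spot in the bright area, had the smallest p, with differences of -0.88 ± 0.33 and -1.07 ± 0.44 (SE). Its summed red signal ran from 4785 to 7332 in FGFR1 KO and from 5991 to 21145 in WT, the last on WT 1. Ms4a1, which encodes the B cell protein CD20, was at 2.46 on WT 1, and the others lay between -1.74 and -0.95. The T and NK cell list had a median of 0.25 on WT 1, against -0.30 to -0.04 elsewhere, with 7 of 11 markers below 0 and 0 called. Ncr1 and Cd3e had the smallest p, with differences of -0.61 ± 0.27 and -0.35 ± 0.22 (SE). Its summed signal ran from 47419 to 64657 in FGFR1 KO and from 49000 to 69769 in WT. The part of lymphocytes in the chemokine values of WT 1 was not tested.

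Cxcl12, the stromal ligand of CXCR4, was measured by 2 probes, both with a mean difference below 0. The brighter read -2.10, -2.73, -2.12 and -3.33 in FGFR1 KO 1 to 4, against -0.81, 0.20, -2.69 and -2.32 in WT 1 to 4. WT 1 and WT 2 stood above the rest, and WT 3 and WT 4 lay within the FGFR1 KO range. The difference was -1.16 ± 0.61 (SE; limma adjusted p = 0.641), -0.63 without WT 2 and -0.07 without WT 1 and WT 2. The second probe, A_55_P1966204, differed by -0.98 ± 0.56 (SE), with WT 1 at -0.69 and the other arrays from -4.42 to -2.21. WT 2 was at -2.21 on this probe, against 0.20 on the brighter. The second probe was above background on 2 FGFR1 KO arrays and 3 WT arrays. Cxcr4 read -0.27, -0.01, 0.14 and -0.69 in FGFR1 KO 1 to 4, against 0.73, -0.82, -0.30 and 0.02 in WT 1 to 4, a difference of -0.11 ± 0.33 (SE).

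Stromal markers were compared on the same arrays. Fibroblast markers had 10 of 10 tested members below 0 and a median of -1.67, with 0 called. Lum and Dpt, both matrix proteins, had the smallest p, with differences of -2.19 ± 0.44 and -2.24 ± 0.48 (SE). Dpt was above background on 1 FGFR1 KO array and 3 WT arrays and had 4 spots in the bright area, so the size of its difference is uncertain. The summed red signal of the fibroblast markers ran from 10335 to 52343 in FGFR1 KO and from 52275 to 108983 in WT. Adipocyte markers had 9 of 9 below 0 and list medians of 3.15 (WT 1) and 3.87 (WT 2), the other 6 arrays having 0.16 to 0.43. Pparg and Plin4 had the smallest p, with differences of -1.36 ± 0.50 and -1.61 ± 0.61 (SE). Their summed signal ran from 3594 to 6324 in FGFR1 KO and from 4765 to 142228 in WT. The part of either cell type in the Cxcl12 value was not tested.

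Cx3cr1, the fractalkine receptor of monocytes and resident macrophages, read above WT on average by all 3 of its probes. Its brightest probe, A_55_P2007964, read 1.09, 0.93, 1.32 and 1.41 in FGFR1 KO 1 to 4, against 0.47, -0.18, 1.23 and 1.25 in WT 1 to 4, a difference of 0.50 ± 0.32 (SE; limma adjusted p = 0.688). A_55_P2054362 read 1.55, 1.55, 1.88 and 1.68 in FGFR1 KO 1 to 4, against 1.07, -0.08, 1.38 and 1.51 in WT 1 to 4. On this probe every FGFR1 KO array lay above every WT array, with a difference of 0.70 ± 0.33 (SE; limma adjusted p = 0.607). A_52_P99810 differed by 0.90 ± 0.40 (SE; limma adjusted p = 0.596). It was above background on 4 FGFR1 KO arrays and no WT array, so it met the filter on FGFR1 KO signal only. Mean red signal in FGFR1 KO was 1.48-fold the bound that background sets for WT. That ratio describes these arrays and is not a minimum for the genotype difference. The limma confidence interval of this probe's log2 difference ran from -0.02 to 1.82 and so included no change. The groups overlapped, with WT 3 at 1.69 and FGFR1 KO 1 and 2 at 1.41 and 0.92. WT 2 was the low array on all 3 probes, and the difference of the brightest was 0.21 without WT 2 and -0.05 without WT 1 and WT 2.

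Its ligand Cx3cl1, a membrane-bound chemokine of epithelium and endothelium, read 0.58, 0.04, 0.04 and -1.48 in FGFR1 KO 1 to 4, against -0.20, -2.25, 0.39 and 0.65 in WT 1 to 4. Arrays of each genotype spread over more than the difference of 0.15 ± 0.66 (SE), whose 95% interval ran from -1.36 to 1.65. Without WT 2 it turned to -0.49.

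**Figure D5:**
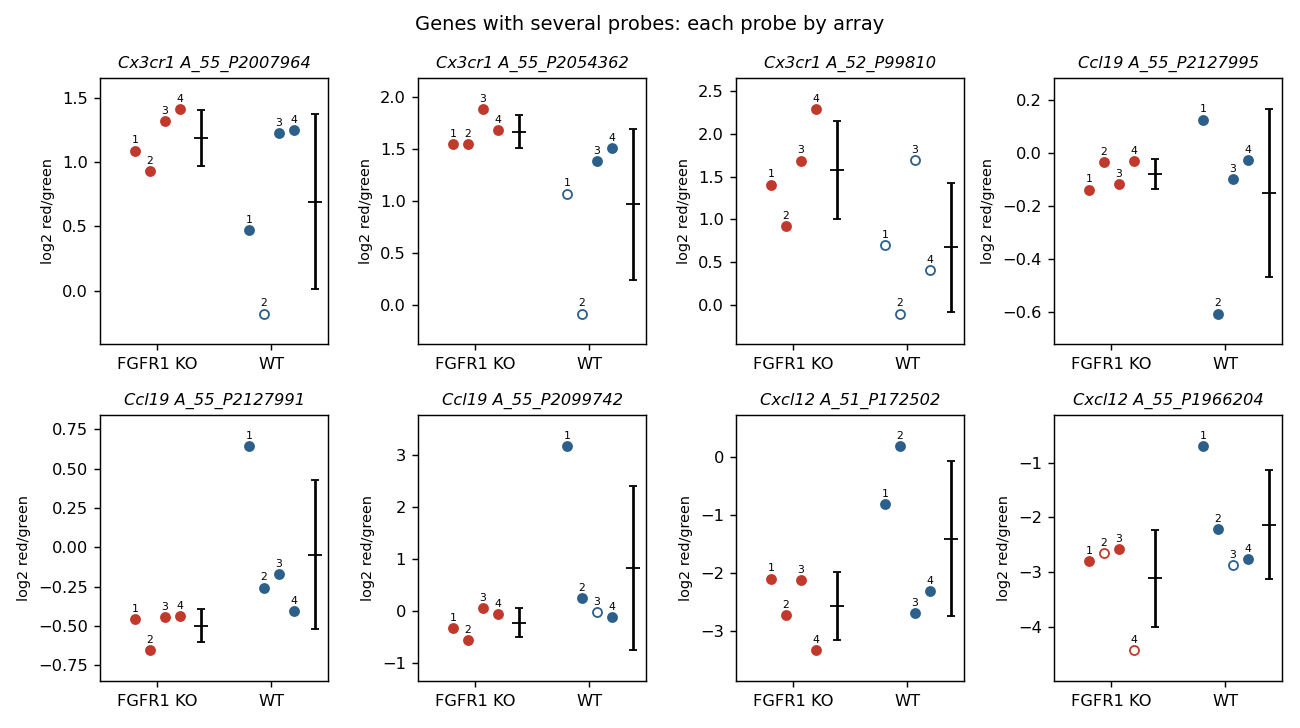
Log2 red over green by array for the 3 Cx3cr1, 3 Ccl19 and 2 Cxcl12 probes, FGFR1 KO left of WT. Points are numbered by replicate, open where red was not well above background, and bars show the group mean and SD (n = 4). The Cx3cr1 probes run the same way, while those of Ccl19 do not.

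No gene of the neutrophil system was called. Cxcl2 and Cxcl3, which with Cxcl1 and Cxcl5 act through CXCR2, were above background on no array. Cxcl2 read 0.02, -0.08, 0.13 and 0.23 in FGFR1 KO 1 to 4, against 0.09, 0.15, 0.11 and 0.02 in WT 1 to 4. Cxcl3 read 0.14, 0.36, -0.00 and 0.03 in FGFR1 KO 1 to 4, against 0.46, -0.12, 0.30 and -0.13 in WT 1 to 4. Both overlapped between genotypes. Cxcl1 read -1.41, -0.42, -1.02 and -1.24 in FGFR1 KO 1 to 4, against -1.74, -1.00, -0.15 and -1.00 in WT 1 to 4, a difference of -0.05 ± 0.34 (SE). Cxcl5 read 0.57, -0.12, -0.10 and 0.44 in FGFR1 KO 1 to 4, against -0.15, -0.07, -0.02 and 0.16 in WT 1 to 4, a difference of 0.22 ± 0.19 (SE). Their shared receptor gene Cxcr2 read 0.30, 0.41, 0.38 and 0.37 in FGFR1 KO 1 to 4, against 0.86, 0.55, 0.07 and 0.03 in WT 1 to 4. Its difference of -0.01 ± 0.20 (SE) had a 95% interval from -0.47 to 0.44, and the FGFR1 KO arrays lay within the WT range.

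Of the T helper chemokines of CCR4, Ccl17 read 0.09, -0.26, 0.12 and -0.00 in FGFR1 KO 1 to 4, against 0.77, -0.67, 0.45 and -0.31 in WT 1 to 4, a difference of -0.07 ± 0.30 (SE). Ccl22 was above background on no array and read 0.03, -0.08, -0.16 and 0.29 in FGFR1 KO 1 to 4, against 0.71, 0.08, -0.01 and 0.29 in WT 1 to 4. The groups overlapped for both ligands. Ccr4 read 0.11, 0.04, 0.41 and 0.09 in FGFR1 KO 1 to 4, against 0.26, -0.23, -0.07 and 0.46 in WT 1 to 4. Its difference was 0.06 ± 0.18 (SE), and its probe was above background on 3 FGFR1 KO arrays and 1 WT array. Ccr8, the receptor of Ccl8 on regulatory T cells, differed by -0.10 ± 0.25 (SE), while its ligand differed by -1.82. Its FGFR1 KO values lay between -0.88 and -0.69 and its WT values between -1.20 and 0.03. Its other ligand, Ccl1, was above background on 1 FGFR1 KO array and no WT array.

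Epithelial and mucosal chemokines overlapped between genotypes. Cxcl14, made by many epithelia, differed by 0.13 ± 0.44 (SE), with FGFR1 KO values from -1.72 to 0.35 and WT values from -1.21 to -0.03. Cxcl16, a transmembrane chemokine for CXCR6, read 0.74, 0.87, 1.04 and 1.20 in FGFR1 KO 1 to 4, against 1.23, 0.10, 1.64 and 0.99 in WT 1 to 4, a difference of -0.03 ± 0.30 (SE). Cxcr6 was above background on 1 FGFR1 KO array and no WT array by either of its probes. Its probe A_55_P1962209 read 0.16, -0.10, -0.13 and -0.37 in FGFR1 KO 1 to 4, against 1.77, -0.26, 0.45 and 0.31 in WT 1 to 4, highest on WT 1. Cxcl15 and Cxcl17 differed by 0.07 ± 0.18 and 0.11 ± 0.34 (SE), each above background on 3 FGFR1 KO arrays and 1 WT array.

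Ccl25, the thymus and gut ligand of CCR9, had 2 tested probes that both read above WT, by 0.11 ± 0.13 and 0.47 ± 0.22 (SE; limma adjusted p = 0.830 and 0.602). Ccr9 read 0.24, -0.53, 0.12 and -0.33 in FGFR1 KO 1 to 4, against -0.05, -0.67, -0.15 and -0.19 in WT 1 to 4. The overlapping groups differed by 0.14 ± 0.22 (SE), and the Ccr9 probe was above background on 3 FGFR1 KO arrays and 1 WT array. Ccl28, which draws antibody-secreting cells to the lactating mammary gland, was above background on 2 FGFR1 KO arrays and no WT array and was not tested. It read -0.22, -0.48, -0.24 and 1.59 in FGFR1 KO 1 to 4, against -0.71, -0.70, -0.70 and -0.10 in WT 1 to 4. Mean red signal in FGFR1 KO was 1.06-fold the bound that background sets for WT. With 2 FGFR1 KO arrays measured, this is not a lower limit.

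Among the genes too dim to test, 12 were ligands and 4 were receptors, and 7 of the 16 were above background on no array. Those 7 were Ccl3, Ccl4, Ccl20, Ccl22, Cxcl2, Cxcl3 and Cxcl10. Xcr1, the receptor of cross-presenting dendritic cells, read 0.22, 0.20, -0.14 and -0.09 in FGFR1 KO 1 to 4, against 1.19, 2.14, 0.66 and 0.30 in WT 1 to 4. Its groups did not overlap, and its spot, in the bright area, was above background on 1 WT array and no FGFR1 KO array. Its ligand Xcl1 was above background on 1 array of each genotype. Ccr1, the receptor of Ccl6 and Ccl9, was above background on 3 FGFR1 KO arrays and no WT array. Its mean difference on the log2 ratio scale was -0.15. Mean red signal in FGFR1 KO was 0.57-fold the bound that background sets for WT, which is not a lower limit.

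Set side by side, receptors and ligands did not keep a common direction. Of 28 ligand and receptor pairs taken from textbook knowledge, both members were tested in 13, and the changes had the same sign in 7 of these. Receptors shared by several ligands enter more than 1 pair, so the pairs are not independent. The receptor genes Ccr2, Ccr3, Ccr4, Ccr9 and Cxcr3 were each above background on 1 WT array. The sign of their changes, and so of their pairs, is uncertain.

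Related chemokine genes outside the set were compared by the same fit. Of 11 tested atypical receptors and other chemokine genes, 9 were below 0 with a median of -0.37, and 0 were called, with 3 below WT at an unadjusted p under 0.05. Pf4, the platelet chemokine CXCL4 that macrophages also make, read -3.43, -2.63, -2.49 and -3.20 in FGFR1 KO 1 to 4, against -0.35, -0.70, -0.88 and -1.88 in WT 1 to 4. Its groups did not overlap, and its difference was -1.98 ± 0.35 (SE; limma adjusted p = 0.162). Rarres2, the attractant chemerin, differed by -1.48 ± 0.37 (SE; limma adjusted p = 0.349). Both spots lay in the bright area.

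Genes that act below or above chemokine receptors showed no call. Of 23 tested receptor signalling genes, 10 were below 0, with a median of 0.03, and Pik3r5 and Prex1, which couple these receptors to lipid kinase and Rac, differed by -0.38 ± 0.21 and -0.46 ± 0.36 (SE). Of 17 tested cytokine and transcription factor genes that induce chemokines, 13 were below 0, with a median of -0.08. Nfkb2 and Irf1 had the smallest p there, with differences of -0.58 ± 0.27 and -0.36 ± 0.27 (SE; limma adjusted p = 0.607 and 0.724). Dendritic cell markers had 3 of 7 below 0, neutrophil markers 5 of 8 and endothelial markers 8 of 10, with 0 called in each and medians of 0.00, -0.08 and -0.39. The smallest p in the dendritic cell list belonged to Cd209a and Zbtb46, with differences of -0.95 ± 0.36 and -0.47 ± 0.30 (SE). The smallest p in the neutrophil list belonged to S100a9 and Camp, with differences of -2.03 ± 0.94 and -0.88 ± 0.62 (SE). The smallest p in the endothelial list belonged to Pecam1 and Lyve1, with differences of -0.64 ± 0.16 and -0.85 ± 0.32 (SE).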

How the data were processed

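Per the labels' protocols, tumour RNA and a universal human reference RNA were labelled and hybridised together. Per the file headers, spots were read with Feature Extraction 11.0.1.1, and the deposited median signal and background columns are uncorrected intensities, the processed signals are corrected intensities, and the ratio column is log10 of red over green. The deposited series matrix holds log2 ratios. Its columns correlated at 0.985 to 0.991 with the values computed here, had medians from -0.0155 to 0.0152, and how it was normalized is not stated.

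Computed here in R 4.3.3 with limma 3.58.1: normexp background correction (offset 50) on median signals, loess within arrays with control and outlier spots at weight 0, and averaging of replicate spots. A probe was tested if red was well above background on at least 4 arrays and it had at least 3 values per group (39795 of 55681 probes). A gene is represented by its brightest tested probe. FGFR1 KO was compared with WT by lmFit and eBayes (two-sided), and p-values over all tested probes were adjusted by Benjamini-Hochberg, with a threshold of 0.05. The fit was tested on simulated data. A bound sets the brighter group's mean red signal against the dim probe's signal or the lowest signal above background, whichever is higher. That mean takes in all arrays of the group, so it gives a lower limit only where all of them are above background. Probes were named through RefSeq accessions in a GRCm38.p6 gene table, and promoters come from RefSeq on that build. Alternatives were other ratios and normalizations, filters, variance settings, array weights, the bright area left out, the replicate block and arrays left out. The members, lists and rules for naming genes were chosen with earlier results of these data known. Values per array are given for the 10 ligands and 6 receptors with the smallest p, for 9 ligand and receptor systems, and where tested probes of a gene disagree. The 2 markers with the smallest p are named per list. Of the named markers and related genes, those with spots in the bright area were Adgre1, Mcpt4, Ncr1, Blk, Cd79a, Dpt, Pparg, Plin4, Cd209a, Camp, Pf4 and Rarres2. Values per array of other members, of Ms4a1, C1qa, Fcgr1 and Pf4, the naming of Cd14, and the 4 promoters, were chosen after values were seen.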

Additional observations from a re-analysis of the deposited data

Results flagged for a closer look

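Each group of 4 arrays was searched for a sample whose gap to the nearest other, as a share of the group's range, passed Dixon's limit, over 62 groups of values of the 31 tested genes. Chance gives such a gap in about 1 in 20 groups, and 5 were found. Ccl2 read -0.84 on FGFR1 KO 1, above the next at -1.11. Ccl5 read -0.27 on FGFR1 KO 1, above the next at -0.71. On WT 1, Cxcl9 read 1.13 (next -0.08), Ccr6 read 2.06 (next 0.75) and Cxcr3 read 1.20 (next -0.04).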

How the results depend on the processing

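No member was called under any alternative. The array-wide count of probes called lower, 4 as reported, was 139 with no filter on dim probes, 11 with array weights, 6 with the deposited series matrix, 0 with Agilent's log ratio, median centring, red signal alone, detection on all arrays, the bright area left out, trended and robust variance or the replicate block, and 0 to 1 when WT or FGFR1 KO arrays were left out. The values showed no clear pairing of arrays by replicate number. Deviations of same-numbered arrays correlated at -0.04, 0.01, 0.11 and -0.11. FGFR1 KO 2 and FGFR1 KO 3 correlated best with their own number, and FGFR1 KO 1 and FGFR1 KO 4 did not. Such weak correlations cannot tell whether the numbers mark a pairing, which the labels do not state. The ligand median of -0.15 was -0.30 with array weights, -0.27 with the mean of a gene's probes, and -0.36 to -0.0020 with arrays left out. Changes that turned sign, none of them called, were 0.24 for Cxcl1, 0.28 for Ccr3, 0.17 for Ccr8 and 0.21 for Cxcr2 with Agilent log ratio; 0.012 for Cxcl1 with deposited series matrix; 0.33 for Cxcl1, -0.073 for Cxcl14, 0.099 for Cxcl16, -0.11 for Cxcl17, 0.19 for Ccr3, 0.11 for Ccr8 and 0.14 for Cxcr2 with red processed signal alone; -0.017 for Ccl19, -0.29 for Cx3cl1, 0.025 for Ccr3 and 0.067 for Cxcr2 with array weights; -0.47 for Ccl19 with mean of all tested probes of a gene. With arrays left out, changes that turned sign ran from -1.00 to 0.18 for Ccl12, from -0.32 to 0.48 for Ccl17, from -0.080 to 0.24 for Ccl19, from -0.57 to 0.059 for Ccl9, from -0.069 to 0.45 for Ccr2, from -0.25 to 0.025 for Ccr3, from -0.055 to 0.17 for Ccr4, from -0.27 to 0.14 for Ccr8, from -0.73 to 0.60 for Cx3cl1, from -0.050 to 0.68 for Cx3cr1, from -0.45 to 0.23 for Cxcl1, from -0.19 to 0.50 for Cxcl14, from -0.17 to 0.15 for Cxcl15, from -0.35 to 0.42 for Cxcl16, from -0.19 to 0.42 for Cxcl17, from -0.53 to 0.017 for Cxcl9, from -0.13 to 0.31 for Cxcr2, from -0.50 to 0.029 for Cxcr3, from -0.36 to 0.19 for Cxcr4. The cause was not tested. Leaving out WT 1 and WT 3 together was chosen after seeing the data. Without the bright area, 11 genes have no value: Ccl24, Ccl7, Ccl12, Ccr7, Ccr6, Ccr8, Cxcl9, Cxcl1, Cxcl5, Cx3cl1 and Cxcr2. Dim WT signal limits the genes above background on few WT arrays.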
